A study of Mus musculus with 18 samples.

Results

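Levels of 10 genes of the elastic fibre and of the matricellular matrix were followed in the cells of the mouse heart between postnatal days 4 and 28 (P4 and P28). The genes were picked by name and function, not by a cutoff on a measured value but with earlier results of these data known, from the 35843 Ensembl genes counted: Mfap4, Mfap5, Eln, Fbln1, Fbln2 and Fbn1, whose products build or decorate elastic fibres, and Postn, Cthrc1, Sparc and Smoc2, whose products are secreted matricellular proteins. Hearts came from Myh6/Esr1-Tomato mice. In these, tamoxifen, given to the mothers in the first days after birth, lets Cre under the cardiomyocyte (CM) promoter Myh6 switch on a lasting red reporter. The labels give this strain for all 18 samples, controls included, while whether the hearts given hairpins also had tamoxifen is not stated in the sources used here. Single cells were dispensed on ICELL8 nanowell chips, and each of the 18 deposited samples is 1 chip: 2 of each of P4, P7 and P14 and 6 of P28, all without a knockdown and called wild type here, and 6 further chips of P28 hearts injected after birth with lentivirus carrying a hairpin against Jun (shJun) or a non-targeting one (shNT). The P4 and P7 hearts were minced and digested with a kit, while P14 and P28 hearts were perfused, so a change of digestion and a change of age cannot be told apart between P7 and P14. In the well reports both P4 chips carried the same 2 animal names and so did both P7 chips, and the P14 chips were taken as 1 mouse each. Of the P28 chips, 1, 2, 5 and 6 carried the names M1 and M2, and chips 3 and 4 only the name "sample". These names were counted as 5 animals, 2 on chips 1 and 2, 1 on chips 3 and 4 and 2 on chips 5 and 6. That count is an assumption, since no source used here says that "sample" is 1 mouse or that M1 and M2 differ between the chips. The cells named "sample" made up 474 of the 746 P28 Fibroblast-like cells. Each hairpin had 2 animals. The p-values below therefore measure the spread between chips, and in the hairpin set between animals. At P4 and P7 both chips carried the same animal names, so their spread is technical and leaves out the spread between animals. One estimate of spread was shared by the 4 stages, so these pairs enter every wild-type SE and p-value.

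Of 23475 wells with a cell, 19851 passed the filters, 12794 of them wild type, and the median per chip lay between 5932.5 and 105526 unique molecular identifiers (UMIs, each standing for 1 captured molecule). Clustering without the genes described here gave 2974 Fibroblast-like cells, 783 from P4, 745 from P7, 136 from P14, 746 from wild-type P28 hearts and 564 from the hairpin set. These clusters were named from 9 fibroblast markers (Pdgfra, Col1a1, Col1a2, Col3a1, Dcn, Lum, Dpt, Tcf21 and Gsn), whose summed level in the Fibroblast-like sums lay between 13388 and 32767 CPM (UMIs scaled to a total of 1000000 UMIs of nuclear genes), against 384 to 4740 CPM in Endothelial-like sums of the same stages. Cell names were rebuilt here and may differ from those of the study. Sums of UMIs over the Fibroblast-like cells of 1 chip were the unit of comparison, and 9 wild-type chips held at least 20 such cells, with 364 and 419 cells on the P4 chips, 398 and 347 on those of P7, 106 and 30 on those of P14, and 141, 474 and 116 on P28 chips 2, 4 and 6. P28 chips 1, 3 and 5 held 15, 0 and 0 such cells, so the P28 chips differed in the kinds of cells they held. Any separation of cells before loading at P28 and a change of age cannot be told apart between P4 and P28. In such sums fewer expressing cells and less RNA per cell cannot be told apart, and for that reason shares of cells are given as well.

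Elastic fibres consist of an elastin core laid down on a scaffold of microfibrils. Fibrillin-1 (Fbn1) forms the backbone of the microfibril, MFAP4 and MFAP5 (also called MAGP-2) bind to it, elastin (Eln) is the core, and the fibulins FBLN1 and FBLN2 are calcium-binding glycoproteins that bridge microfibrils, elastin and basement membranes. Matricellular proteins sit in the matrix without forming fibres: periostin (Postn) and SPARC bind collagen and affect how fibrils form, SMOC2 is a relative of SPARC, and CTHRC1 is a small secreted glycoprotein known from injured and activated fibroblasts. In the heart, resident fibroblasts are the main makers of interstitial matrix, and vessels, valves and endocardium add their own. On GRCm38, the build also called mm10, all 10 are annotated as protein-coding genes: Mfap4 at chr11:61485431-61488900, Mfap5 at chr6:122505845-122529290, Eln at chr5:134702593-134747323, Fbln1 at chr15:85205949-85286535, Fbln2 at chr6:91212455-91272540, Fbn1 at chr2:125300594-125507993, Postn at chr3:54361109-54391037, Cthrc1 at chr15:39076932-39087121, Sparc at chr11:55394500-55423183 and Smoc2 at chr17:14279506-14404790. Eln, Fbn1 and Sparc lie on the minus strand and the other 7 on the plus strand.

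Promoter windows of RefSeq on GRCm38.p6 covered 5 of the 10 genes (Fbln1, Fbln2, Fbn1, Postn and Sparc) with 7 windows. Each was searched on both strands, over the 250 bases before the start, for the AP-1 letters TGANTCA, since AP-1 contains JUN, for the TATA box letters TATAAA and for CATTCC, the core that TEAD factors bind. Only 1 match was found in the 7 windows, a TATAAA 26 bases before the start of one Postn window. Of 32851 mouse promoter windows of the same length, 12.4% held TATAAA, 6.75% TGANTCA and 12.6% CATTCC. The Postn window is shown because Postn is the member with a matched window that fell between P4 and P28 and because it holds this match. It spans chr3:54360857-54361106 on the plus strand, its last base lies just before the annotated gene, and capitals mark the TATA box letters:

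Postn: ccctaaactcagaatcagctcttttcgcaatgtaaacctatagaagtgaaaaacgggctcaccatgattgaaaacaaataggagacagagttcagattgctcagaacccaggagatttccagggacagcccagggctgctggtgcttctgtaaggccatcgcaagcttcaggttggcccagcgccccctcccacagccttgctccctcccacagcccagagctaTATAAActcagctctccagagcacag

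The class with the highest median level was the Fibroblast-like class in 34 of 40 pairs of a gene and a stage. The chips of the next class by median did not overlap with the fibroblast chips in 27 of these 34. Several of these next classes had only 1 chip, and classes further down were not compared. For Fbln2 at P28, Endocardial-like chips reached 740 CPM, above the lowest fibroblast chip at 619 CPM. For Mfap4 at P28, Erythroid-like chips reached 178 CPM and T cell-like chips 125 CPM, above the lowest fibroblast chip at 88.1 CPM. The same counts were not taken over all genes. For Mfap5 the median over chips was 1559 CPM in fibroblasts and 598 CPM in the Endocardial-like class at P4, 2712 against 479 CPM in the 22 CM-like cells of P7, 5108 against 815 CPM (Endocardial-like) at P14, and 6368 against 636 CPM (Erythroid-like) at P28, and no chips overlapped at any stage. Cthrc1 stood at 288 CPM against 33.5 CPM in the Endocardial-like class at P4, and at P4 the Fibroblast-like cells gave 92.1% of the Cthrc1 UMIs of chip 1 with 34.1% of all its UMIs. Cell classes were defined by clustering, so these levels are described without a test.

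Endocardial-like and mural cells led in several of the other pairs. At P4 the Endocardial-like class, named for the inner lining of the heart, was at 598 CPM for Fbln2 (544 and 652) against 316 CPM in fibroblasts (345 and 287). For Eln it was at 36.7 CPM (30.1 and 43.3) against 15.6 CPM (16.4 and 14.7), and the chips overlapped for neither gene. Eln was highest in Mural-like cells, which include smooth muscle, at P7 (15.5 CPM, from 4.45 to 26.5) and in the 21 Mural-like cells of P14 (26.4 CPM). Fbln1 at P28 was at 320 CPM in Endocardial-like cells, from 88.1 to 569 CPM over 4 chips, which overlapped with the fibroblast chips at 191 to 337 CPM. Cthrc1 at P28 also overlapped between both classes. The P28 Endocardial-like cells carried fibroblast marker RNA too, with Dcn at 3591 CPM against 9754 CPM in fibroblasts and Col3a1 at 1351 against 3284 CPM. Its part in these values was not tested. Sparc, in contrast, was high in several classes. Its P4 medians were 3031 CPM in fibroblasts, 2662 CPM in Endothelial-like and 2595 CPM in Mural-like cells, and the fibroblast and endothelial chips overlapped.

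**Figure D1:**
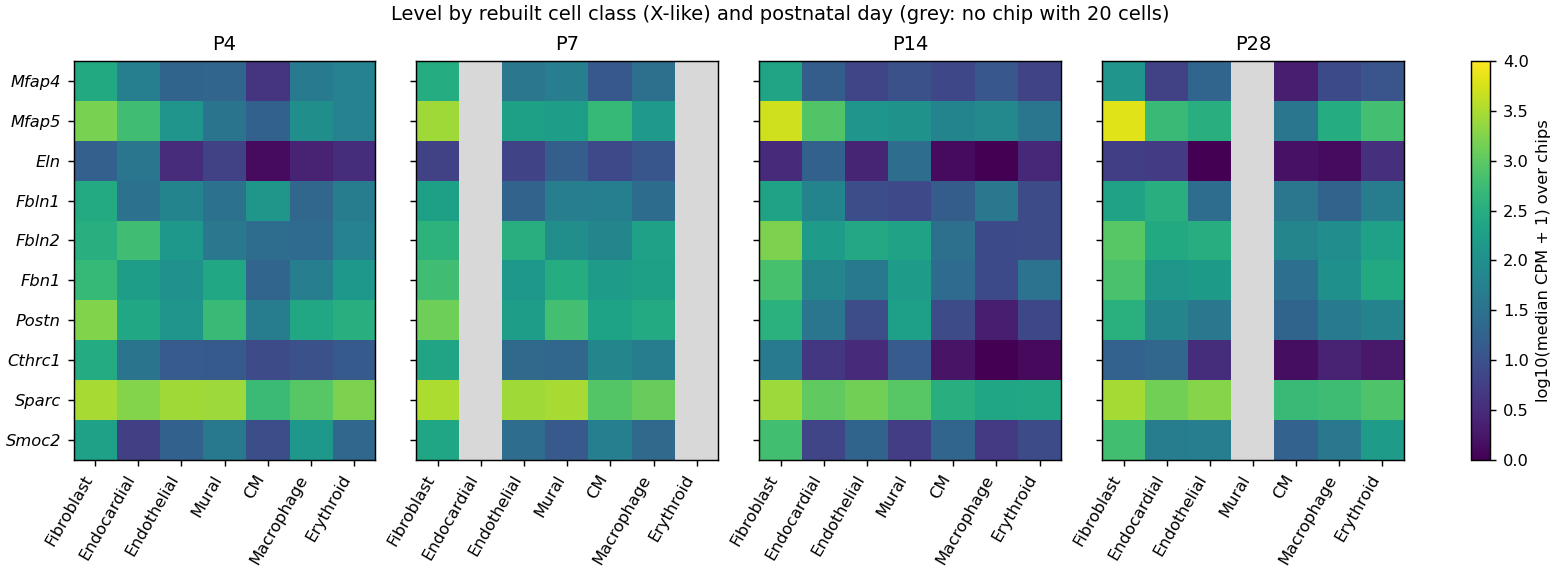
Colour gives log10 of the median CPM plus 1 over chips, with the 10 genes in rows and the rebuilt cell classes in columns, in 1 panel for each of P4, P7, P14 and P28. Grey marks a class with no chip of 20 cells. The Fibroblast-like column is brightest for most genes, while the Sparc row is bright in many classes.

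Wells without a cell give the background. The 90 negative control wells held a median of 198 UMIs. Sparc had 39 UMIs in them, Mfap5 10, Fbln2 8, Fbln1 and Smoc2 5 each, Fbn1 3, Mfap4 2 and Postn 1, and Eln and Cthrc1 had none. UMIs of every member but Eln and Cthrc1 were thus present in wells without a cell. Low levels of the genes found there were not read as expression in other classes.

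Whether these matrix genes change in fibroblasts as the heart matures was asked first between P4 and P28. Of the 10 genes, 3 rose (Mfap5, Smoc2 and Fbln2), 2 fell (Postn and Cthrc1) and 5 did not pass the test. Among all 16391 genes tested with edgeR's quasi-likelihood test, 432 were called at an adjusted p below 0.05, which is 2.64%. Of these, 167 rose (1.02%) and 265 fell (1.62%). The median log2 change was -0.01 over the 10 genes and -0.01 over all genes tested, so the genes had no common direction.

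Among the microfibril genes, Mfap5 rose most clearly. It was at 1144 and 1973 CPM on the P4 chips, 2871 and 2552 CPM on the P7 chips, 4462 and 5753 CPM on the P14 chips and 6368, 5114 and 6841 CPM on the 3 P28 chips. Every P28 chip was above every P4 and P7 chip. The log2 change from P4 to P28 was 2.08 ± 0.32 (SE), a 4.23-fold rise (adjusted p = 0.000782, n = 2 against 3, edgeR). Fbn1, the backbone of the same microfibrils, was at 440 and 521 CPM on the P4 chips, 628 and 555 CPM on the P7 chips, 493 and 873 CPM on the P14 chips and 866, 576 and 717 CPM on the 3 P28 chips. All 3 P28 chips were above both P4 chips, but the log2 change of 0.69 ± 0.34 did not pass the test (adjusted p = 0.42, edgeR). Mfap4 had the widest spread at P28. Its levels were 263 and 276 CPM on the P4 chips, 268 and 320 CPM on the P7 chips, 193 and 234 CPM on the P14 chips and 411, 88.1 and 122 CPM on the 3 P28 chips, so that the P28 chips lay on both sides of the P4 chips (log2 change -0.31 ± 0.49, adjusted p = 0.91, edgeR).

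Of both fibulins, Fbln2 rose and Fbln1 did not pass the test. Fbln2 was at 345 and 287 CPM on the P4 chips, 445 and 321 CPM on the P7 chips, 733 and 2519 CPM on the P14 chips and 899, 619 and 1386 CPM on the 3 P28 chips. The P14 and P28 chips were all above the P4 and P7 chips, and the spread among them was wide. The log2 change from P4 to P28 was 1.76 ± 0.45, a 3.38-fold rise (adjusted p = 0.0406, edgeR). Fbln1 was at 263 and 291 CPM on the P4 chips, 155 and 212 CPM on the P7 chips, 122 and 276 CPM on the P14 chips and 337, 200 and 191 CPM on the 3 P28 chips, and the stages overlapped (log2 change -0.09 ± 0.41, adjusted p = 0.98, edgeR). Elastin itself was scarce in fibroblasts. Eln was at 16.4 and 14.7 CPM on the P4 chips, 2.66 and 7.10 CPM on the P7 chips, 2.23 and 1.67 CPM on the P14 chips and 21.6, 4.58 and 1.64 CPM on the 3 P28 chips. Of the 59 Eln UMIs of P28 chip 2, 50.8% came from 1 cell, and P28 chip 6 had 3 Eln UMIs in all, so a change in Eln could not be detected at this depth (log2 change -0.70 ± 1.06, adjusted p = 0.91, edgeR).

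The matricellular genes moved in both directions. Smoc2 was at 202 and 183 CPM on the P4 chips, 232 and 223 CPM on the P7 chips, 674 and 538 CPM on the P14 chips and 893, 620 and 588 CPM on the 3 P28 chips. No P14 or P28 chip overlapped with an earlier one, and the log2 change from P4 to P28 was 1.98 ± 0.38, a 3.93-fold rise (adjusted p = 0.0058, edgeR). Postn was at 1995 and 1533 CPM on the P4 chips, 1481 and 1136 CPM on the P7 chips, 218 and 493 CPM on the P14 chips and 343, 159 and 629 CPM on the 3 P28 chips. The 4 early chips were all above the 5 later ones, with a log2 change of -2.08 ± 0.45 from P4 to P28, 4.23-fold lower (adjusted p = 0.0142, edgeR). Cthrc1 was at 353 and 222 CPM on the P4 chips, 296 and 139 CPM on the P7 chips, 34.0 and 53.5 CPM on the P14 chips and 16.8, 5.84 and 47.1 CPM on the 3 P28 chips. It again showed 4 high early chips and 5 low later ones. Its log2 change of -3.50 ± 0.66, 11.3-fold lower, was the largest of the 10 genes (adjusted p = 0.00514, edgeR). Without single chips it lay between -4.64 (without P28 chip 6) and -2.98 (without P28 chip 4). Sparc stayed among the most counted genes, with 2660 and 3403 CPM on the P4 chips, 3147 and 3335 CPM on the P7 chips, 2278 and 2950 CPM on the P14 chips and 3869, 2149 and 2854 CPM on the 3 P28 chips. Its stages overlapped, and the log2 change was 0.07 ± 0.29 (adjusted p = 0.98, edgeR).

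**Figure D2:**
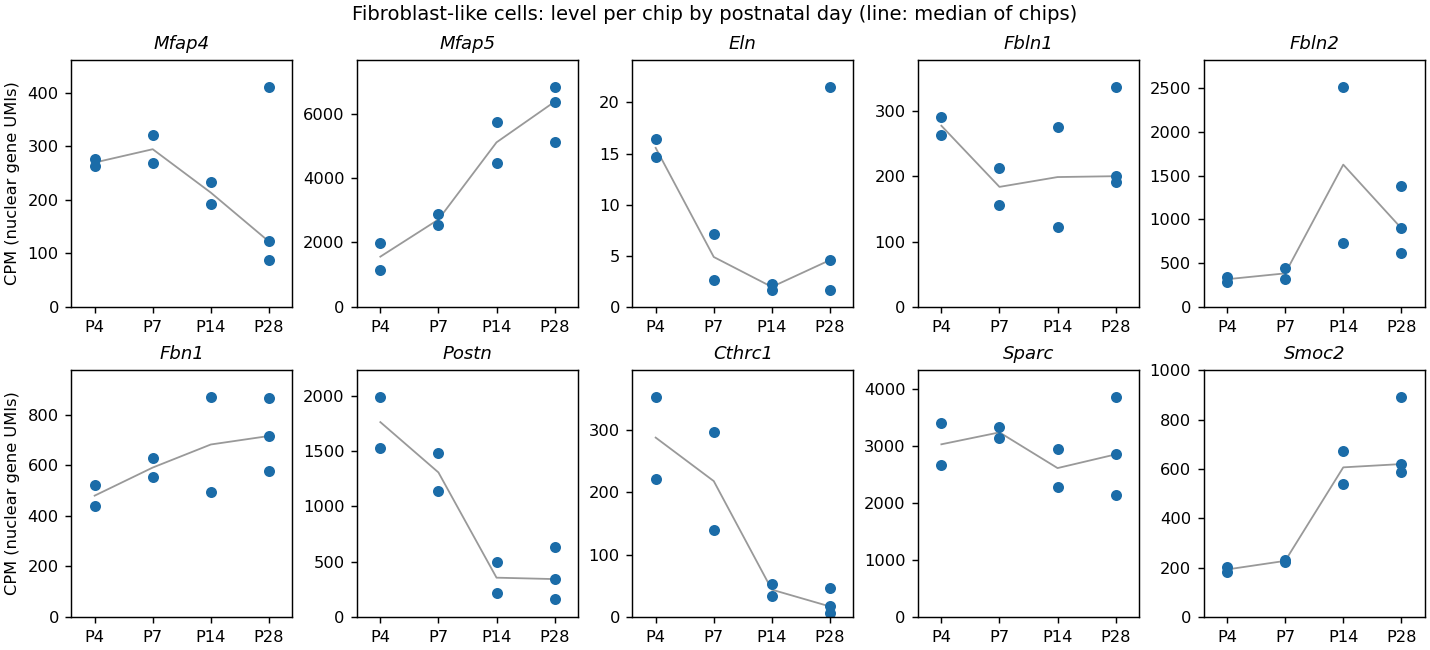
Each panel is 1 gene, with postnatal day on the x axis and CPM in Fibroblast-like cells on the y axis from 0. Points are chips and the line joins the medians of the chips of a stage. Mfap5, Smoc2 and Fbln2 are higher on all P28 chips than on all P4 chips, and Postn and Cthrc1 are lower.

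The calls differ in how much they rest on single chips. Mfap5 was called without any 1 of the 9 chips (log2 change from 1.68 to 2.60). Without P4 chip 1 it was the only member called, and without P4 chip 2 Mfap5 and Cthrc1 were called. Without P28 chip 6 Postn was at -2.75. Fbln2 was also lost without P28 chip 2 (1.86) and without P28 chip 6 (1.35), and Postn without P28 chip 2 (-1.97) and without P28 chip 4 (-1.68). When fibroblasts were picked cell by cell from the marker lists rather than by cluster, only Postn (-2.25) and Cthrc1 (-3.79) were called, with 1.53 for Mfap5, 1.69 for Smoc2 and 1.62 for Fbln2. With UMIs summed per named animal, on the same count of animals, all 5 were called.

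Other properties of the Fibroblast-like sums also moved between P4 and P28. The proliferation genes Mki67, Top2a and Prc1 summed to 943 to 976 CPM at P4 and 22.4 to 32.5 CPM at P28, and without the cycling clusters Fbln2 was at 1.77 and lost its call (adjusted p = 0.052, edgeR) while the other 4 kept theirs. The 9 CM markers summed to 8033 to 10410 CPM at P4 and 627 to 745 CPM at P28, the 7 erythroid genes to 392 to 449 CPM and 33935 to 103386 CPM, and the 9 macrophage markers to 25.9 to 36.2 CPM and 353 to 951 CPM. Of the other marker lists, the 9 fibroblast markers summed to 15420 to 16526 CPM at P4 and 20430 to 32767 CPM at P28, with Dcn at 4625 and 9754 CPM and Gsn at 497 and 5414 CPM over all Fibroblast-like cells of each stage. The 10 mural markers were lower at P28 (926 to 977 against 255 to 780 CPM), as were the 5 endocardial ones (127 to 165 against 54.2 to 83.3 CPM), and the 7 T cell genes were higher (0.975 to 4.04 against 4.58 to 57.0 CPM). Without the erythroid genes in the fit all 5 members were called, and their log2 changes lay between -3.53 and 2.06. The part of the other differences in the result was not tested. Xist, which is read from the inactive X of females, was at 177 and 270 CPM on the P4 chips and under 1 CPM on both P7 chips. It was at 102 and 0 CPM on the P14 chips and at 0, 214 and 188 CPM at P28. The presence of female cells thus went with stage between P4 and P7 and differed between chips at P14 and P28. Xist per named animal is not given, so the P4 animals may have been of 1 sex or of both.

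**Figure D3:**
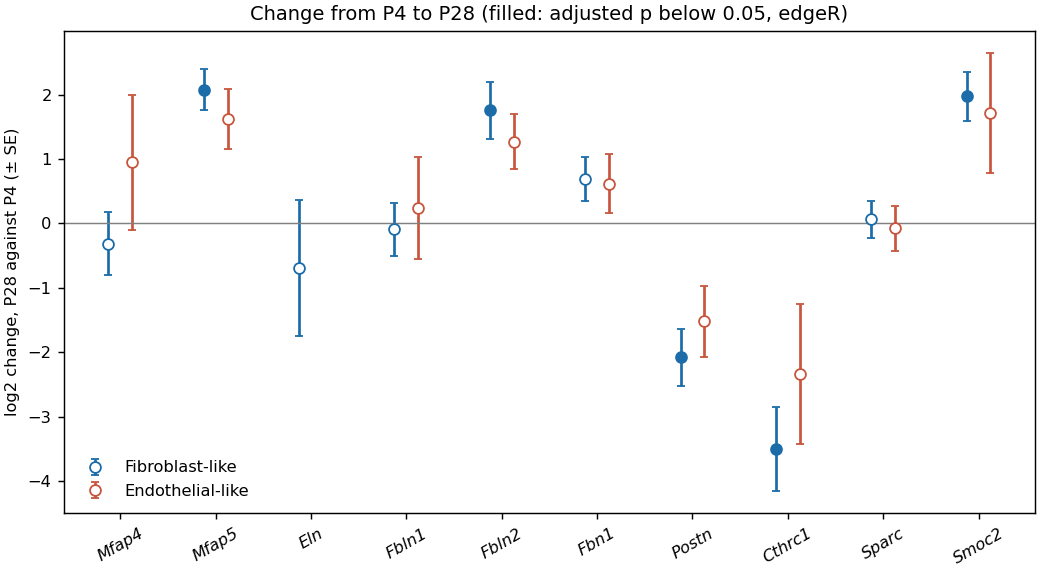
For each gene, the log2 change from P4 to P28 is shown with its SE for Fibroblast-like and Endothelial-like sums. Filled points have an adjusted p below 0.05 with edgeR. In fibroblasts 5 genes are filled, in endothelial cells none, and the SE bars of both classes overlap for all 9 genes tested in both.

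The step at which each gene moved was then examined with the 4 stages fitted together. Between P4 and P7 only 7 genes were called (0.0427%, 4 higher or 0.0244% and 3 lower or 0.0183%), and none was a member. Mfap5 had the smallest p of the 10 (log2 change 0.91 ± 0.32, unadjusted p = 0.0112, adjusted p = 1, edgeR). From P7 to P14, 228 genes were called (1.39%), 103 higher (0.628%) and 125 lower (0.763%). Fbln2 rose by 2.30 ± 0.48 (adjusted p = 0.0213, edgeR) and Smoc2 by 1.75 ± 0.39 (adjusted p = 0.0337, edgeR). Mfap5 at 1.20 ± 0.33 (adjusted p = 0.0748), Postn at -1.64 ± 0.51 (adjusted p = 0.113) and Cthrc1 at -2.05 ± 0.73 (adjusted p = 0.166) did not pass edgeR's test. The median over all genes was -0.34 for this step, and the erythroid genes took 150233 to 194940 CPM of the fibroblast sums at P14, against 7976 to 8479 CPM at P7. Without P14 chip 2, which held 30 Fibroblast-like cells, Fbln2 was at 1.41 (adjusted p = 0.17), and 28.3% of the Fbln2 UMIs of that chip came from 1 cell. Smoc2 was lost without P14 chip 1 (1.25), without either P4 chip (1.73 each) and, with Fbln2, without either P7 chip (1.74 and 1.73). From P14 to P28, 71 genes were called (0.433%), 10 higher (0.061%) and 61 lower (0.372%), and none was a member. Fbln2 was at -0.95 ± 0.41 (adjusted p = 0.295) and Mfap5 at -0.03 ± 0.29 (adjusted p = 0.97, edgeR). The median over all genes was 0.33 for this last step.

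Shares of cells do not carry the weight of single rich cells. Each cell was thinned to 2000 UMIs of nuclear genes, and shallower cells were left out (30 of P4, 15 of P7, 1 of P14 and 51 of P28). Mfap5 was then seen in 45.2 to 51.3% of Fibroblast-like cells at P4, 68.0 to 68.7% at P7, 73.5 to 77.8% at P14 and 89.5 to 91.8% at P28, and in 2.63 to 13.2% of CM-like cells, the class taken here as background, over the stages from P4 to P28. Unthinned, the Mfap5 shares were 60.7 to 68.5% at P4 and 96.6 to 98.6% at P28. Smoc2 went from 17.5 to 20.7% at P4 to 46.6 to 60.9% at P28, with at most 4.61% in CM-like cells. For Fbln2 the shares were 24.9 to 26.9% at P4, 44.7 to 65.6% at P14 and 50.3 to 55.4% at P28, with at most 10.3% in CM-like cells at P28. Postn went the other way, from 77.9 to 82.4% of cells at P4 and 73.0 to 79.3% at P7 to 18.2 to 21.6% at P14 and 18.5 to 29.5% at P28. Cthrc1 was seen in 18.6 to 22.7% of cells at P4, 16.7 to 27.6% at P7, 2.36 to 2.47% at P14 and 0.989 to 2.15% at P28. For all 5 genes the P4 and P28 shares differed in the direction of the CPM without overlap of chips. These genes had been called on the same cells and chips, so the shares describe the change and are no separate support. Neighbouring stages overlapped in Cthrc1, Postn and Smoc2 between P4 and P7, and in Postn, Smoc2 and Fbln2 between P14 and P28. The median depth per chip, in UMIs of nuclear genes, lay between 9157 and 21262 for fibroblasts and 5252.5 and 35751.5 for CM-like cells.

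**Figure D4:**
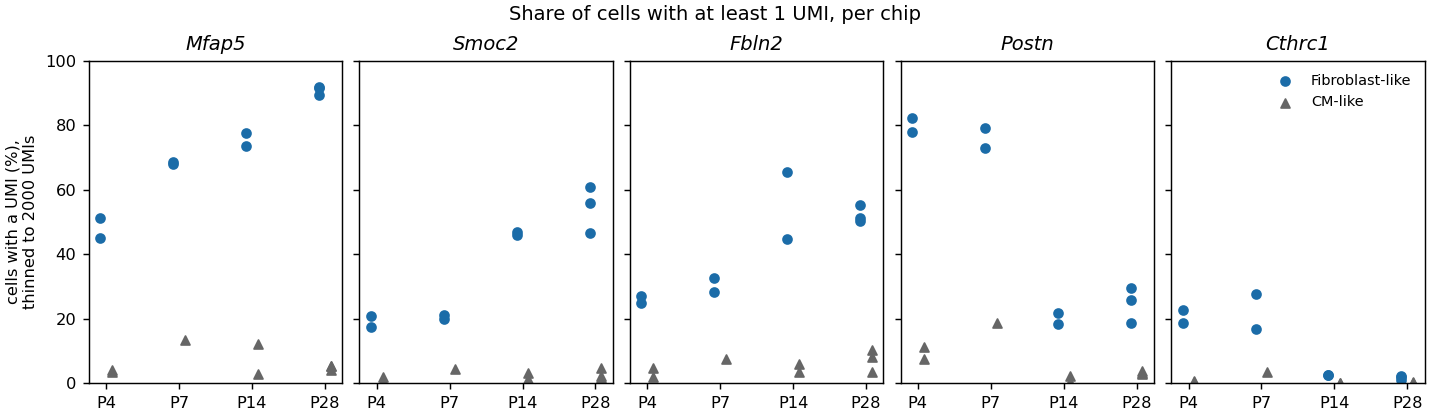
The y axis gives the percentage of cells with at least 1 UMI after thinning each cell to 2000 UMIs, with postnatal day on the x axis and 1 panel per called gene. Points are chips, coloured by Fibroblast-like and CM-like class. Mfap5 reaches 89.5 to 91.8% of fibroblasts at P28, whereas Cthrc1 ends at 0.989 to 2.15%.

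Within a stage the genes differed in how evenly cells carried them. At P28 the Mfap5 UMIs were spread over 97.5% of the 746 Fibroblast-like cells. The Cthrc1 UMIs at P28 came from 25 cells, and 54.3, 43.1 and 62.8% of those on chips 2, 4 and 6 came from 1 cell each. At P14 a single cell gave all 32 Cthrc1 UMIs of chip 2 and 61.8% of the 76 on chip 1. A thinly spread gene of this kind also appeared in Fbln1 on P14 chip 2, where 1 cell gave 77.6% of 165 UMIs. The P4 fibroblasts formed 3 clusters. The largest (451 cells) was at 1860 CPM for Mfap5, a second of 241 shallow cells (median 5700 UMIs) at 757 CPM, and the cycling one of 91 cells at 1244 CPM, whereas Postn was at 1696, 1847 and 1628 CPM in these clusters. Mfap5 therefore varied between P4 clusters more than Postn did, and the deeper of the P4 chips had the higher Mfap5 level.

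Over the P28 cells grouped by name into what were counted as 5 animals, Mfap5 ranged from 5114 to 7809 CPM, Smoc2 from 487 to 1014 CPM, Fbln2 from 619 to 1465 CPM, Postn from 159 to 878 CPM and Cthrc1 from 1.28 to 60.6 CPM. Both P4 animals were at 1485 and 1857 CPM for Mfap5, 178 and 202 CPM for Smoc2, 282 and 332 CPM for Fbln2, 1500 and 1909 CPM for Postn, and 195 and 338 CPM for Cthrc1. No P28 animal overlapped with a P4 animal for any of the 5 genes. These genes had been called on the same cells, so this is no separate support, and the share over all genes was not counted. The lowest P28 values of Mfap5, Fbln2 and Postn came from the cells named "sample".

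The wider family was read from 40 related genes, 37 of which were tested: other fibrillins, fibulins, latent TGF-beta binding proteins, lysyl oxidases, thrombospondins, tenascins, CCN proteins and SPARC relatives. From P4 to P28 in fibroblasts 1 rose, 3 fell and 33 did not pass the test, and the median log2 change was 0.02 against -0.01 over all genes. The gene that rose was Sparcl1, a close relative of Sparc, at 608 and 742 CPM at P4 and 2121, 1274 and 1944 CPM at P28 (log2 change 1.51 ± 0.34, adjusted p = 0.0176, edgeR). Mfap2, which encodes MAGP-1, the other microfibril-associated glycoprotein of the MAGP pair, fell from 814 and 763 CPM to 143, 156 and 172 CPM (-2.20 ± 0.43, adjusted p = 0.00683, edgeR), while Mfap5, encoding MAGP-2, rose. The matricellular genes Ccn3 and Ccn4 fell as well. Ccn3 went from 175 and 165 CPM to 43.1, 28.6 and 3.28 CPM (-2.67 ± 0.69, adjusted p = 0.043), and Ccn4 from 153 and 420 UMIs (21.3 and 32.6 CPM) to 1, 9 and 0 UMIs (-5.36 ± 1.16, adjusted p = 0.0149, edgeR). From P7 to P14, Efemp1, which encodes fibulin-3, was the single related gene called (5.06 ± 1.14, adjusted p = 0.0331, edgeR). It went from 9.53 and 1.27 CPM to 44.7 and 274 CPM, was not called between P4 and P28 (2.28 ± 0.96, adjusted p = 0.308), and so showed its highest level on P14 chip 2, like Fbln2.

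Endothelial-like cells of the same chips were compared next, since several of these genes are also made by vessels. From P4 to P28, 401 of 14107 genes were called (2.84%), 187 higher (1.33%) and 214 lower (1.52%), and none of the 9 members tested was among them. Eln was too low to be tested. Mfap5 was nearest, at 74.5 and 165 CPM at P4 and from 217 to 493 CPM at P28 (log2 change 1.62 ± 0.46, adjusted p = 0.0648 with edgeR), and it passed with DESeq2 (adjusted p = 0.0143) and with edgeR without P28 chip 6 (1.85). Fbln2 stood at 1.27 ± 0.43 (adjusted p = 0.13), Postn at -1.52 ± 0.55 (adjusted p = 0.167), Cthrc1 at -2.34 ± 1.09 (adjusted p = 0.307) and Smoc2 at 1.72 ± 0.93 (adjusted p = 0.40, edgeR). Fibroblast markers summed to 981 to 1311 CPM in the Endothelial-like sums at P4 and 1916 to 4740 CPM at P28, and their part in these values was not tested. Wells without a cell were at 193 CPM for Mfap5, 154 CPM for Fbln2 and 96.5 CPM for Smoc2, from 10, 8 and 5 UMIs. The P4 Endothelial-like levels of Mfap5 and of Fbln2 (130 and 138 CPM) lay under these. So did Smoc2 at P4 (4.70 and 28.4 CPM) and at P28 (40.8 to 64.1 CPM). The part of this background was not tested either.

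The difference between the fibroblast and the endothelial change was tested itself, with the chip as a block. No gene of 16640 was called (0%), with 822 at an unadjusted p under 0.05, and all 10 members had an adjusted p of 1 with edgeR. The fibroblast change minus the endothelial change was 0.50 ± 0.35 for Mfap5, 0.53 ± 0.45 for Fbln2, -0.09 ± 0.81 for Smoc2, -0.76 ± 0.78 for Postn and -1.42 ± 0.93 for Cthrc1 on the log2 scale. A call in fibroblasts and none in endothelial cells was thus not shown to be a difference between both classes, nor do these errors show that the classes changed alike.

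The hairpin set asks whether these genes differ in P28 fibroblasts of hearts injected with a hairpin against Jun. Among the cell types it compared, the paper saw effective silencing of Jun in CMs alone. Levels of Jun in CM-like cells by themselves are not given here. Jun itself was checked first. In Fibroblast-like cells it was at 203 and 191 CPM in the animals labelled shJun and at 67.2 and 122 CPM in those labelled shNT, so its level goes against the labels in this class, although the difference did not pass the test (log2 change 0.97 ± 0.54, adjusted p = 1, edgeR). Over all passing cells Jun was at 67.0 and 92.0 CPM with shJun and 68.2 and 85.9 CPM with shNT, which overlap. The directions that follow are those of the labels. Animal 1 labelled shNT also stood apart, since 20.2% of its 89 Fibroblast-like cells scored for the epicardial list, against 2.70 to 3.88% in the other 3 animals. CM markers summed to 4848 and 40072 CPM with shJun and to 12539 and 33937 CPM with shNT.

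No gene of 13871 was called between the labels (0%), with 573 at an unadjusted p under 0.05. DESeq2 called 79, none of them a member. Mfap5 was at 2452 and 2205 CPM in cells labelled shJun and 2827 and 3513 CPM in cells labelled shNT, without overlap (log2 change -0.52 ± 0.42, adjusted p = 1, edgeR). Smoc2 was at 936 and 570 CPM against 576 and 315 CPM, which overlap (0.70 ± 0.48), and Postn at 147 and 117 CPM against 224 and 75.3 CPM (-0.21 ± 0.60). The remaining members overlapped between the labels as well: Fbn1 at 612 and 638 against 541 and 773 CPM, Fbln1 at 811 and 512 against 760 and 593 CPM, Fbln2 at 730 and 717 against 933 and 706 CPM, Mfap4 at 106 and 228 against 267 and 194 CPM, Eln at 6.27 and 23.5 against 13.4 and 18.2 CPM, and Sparc at 3462 and 2709 against 4018 and 2754 CPM. Cthrc1 was close to absent in all 4 animals, with 0 and 20 UMIs against 3 and 24, and the 0 among 148 cells allows up to 0.448 CPM by a count of 3 (counting error only).

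**Figure D5:**
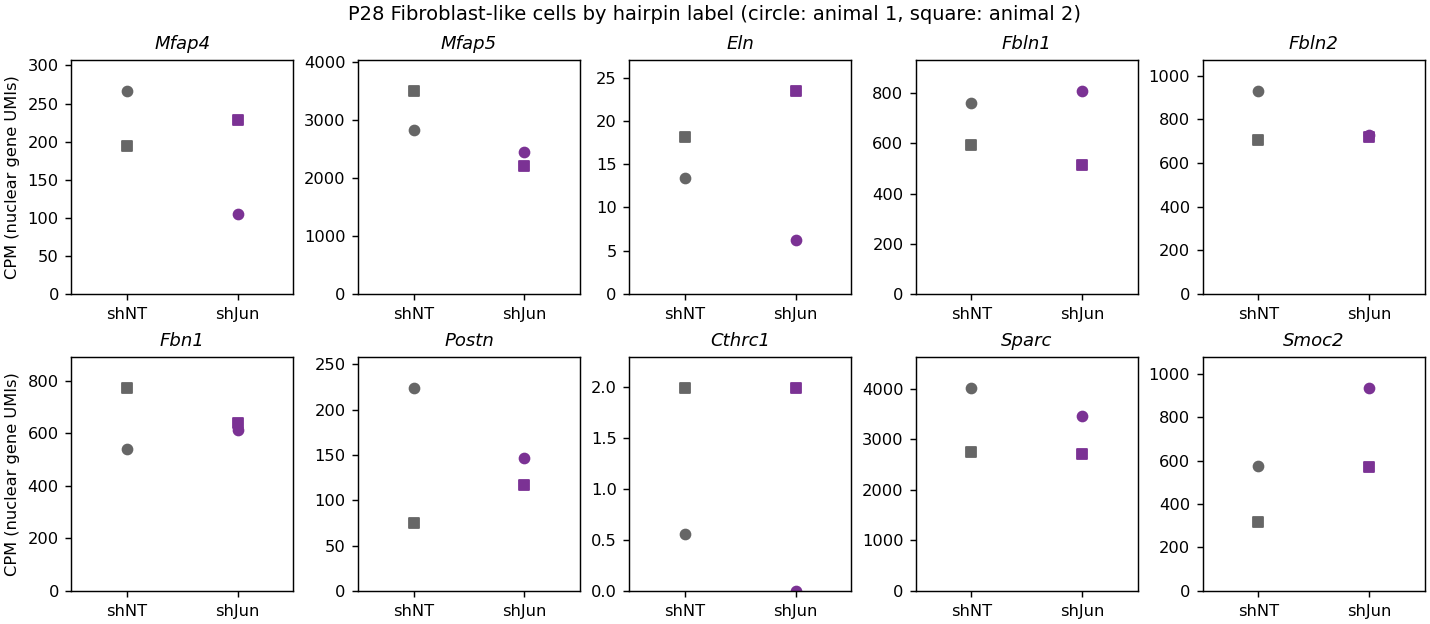
CPM in P28 Fibroblast-like cells is shown for each gene, with the hairpin label on the x axis and a y axis from 0. Circles are animal 1 and squares animal 2 of each label. Points of both labels overlap in most panels, and Mfap5 is lower in both animals labelled shJun, without passing the test.

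Genes with the most similar pattern were sought over the 74 wild-type sums of a class and a chip, among 13575 genes, by Pearson correlation of log2 of CPM plus 1. These sums share chips and cell classes, so r is a description. Mfap5 was nearest to Dcn (r = 0.87) and Adamts5 (0.81), Smoc2 to Gsn (0.82) and Dpt (0.81), and Fbn1 to Col3a1 (0.87) and Col1a2 (0.86). Dcn, Gsn, Dpt, Col3a1 and Col1a2 are on the fibroblast marker list. Fbln2 was nearest to Mfap5 (0.77) and Ltbp4 (0.75), Mfap4 to Col6a2 (0.79) and Col5a1 (0.78), and Fbln1 to Sema3c (0.75) and Osr1 (0.74). Postn was nearest to Fstl1 (0.81) and Gm3788 (0.81), and Cthrc1 to Ptn (0.82) and Nrk (0.78). Sparc paired with the basement membrane genes Lama4 (0.90) and Col4a1 (0.90). Eln had the weakest partners, Hdgfl3 and Megf6 (0.64 each). Between members, r was 0.73 for Postn and Cthrc1, 0.72 for Mfap5 and Smoc2, 0.49 for Mfap5 and Postn, and 0.16 for Cthrc1 and Smoc2.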

How the data were processed

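Cells of mouse hearts were measured by single-cell RNA-seq on nanowell chips. Per the study's methods the authors trimmed reads, aligned them to mm10 with STAR 2.5.2b and assigned them to Ensembl genes with featureCounts (Subread 1.4.6-p1). The deposited matrices hold raw counts of UMIs per gene and well, not normalized or filtered. The 10 genes, the related list and the marker lists were chosen with earlier results of these data known.

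Cells with at least 500 genes and a log10 UMI count within 2 SD of their group's mean were kept. Cells were clustered per stage or hairpin animal (10 principal components, 30 neighbours, leidenalg 0.10.2), leaving out the 10 genes and the related list, and clusters were named from 12 marker lists. A name needed 3 detected markers and a mean score of 0.5, with a margin of 0.3 over the next list, minimums set after the clusters had been seen. No doublet caller was run, because wells had been imaged for single cells. Of 5008 well barcodes 4671 occur on more than 1 chip, since they mark positions on a chip. The 35 mitochondrial genes stayed out of totals.

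Counts were summed per class and chip (hairpin set: per animal) in sums of at least 20 cells and tested in edgeR 4.0.16 (quasi-likelihood, TMM, filterByExpr, Benjamini-Hochberg over all genes) in R 4.3.3. The fibroblast fit had 9 sums of all 4 stages and 5 residual degrees of freedom, the hairpin fit 4 sums and 2. Scripts were tested on simulated data. The genes named were the 10 members, related genes called between P4 and P28, and the 2 genes most like each member. Efemp1 was named after its values were seen. Alternatives covered scaling, tool, filters, the cells summed, the replicate unit and each chip left out. The cell-level tests of the study's methods were not used, since cells are not replicates.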

Additional observations from a re-analysis of the deposited data

Results flagged for a closer look

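On P28 chip 2, 568 cells stayed without a name and entered none of the comparisons, with a median of 5238.5 UMIs. All but 1 of them (567) belonged to a P28 cluster of 629 cells in which endothelial and fibroblast markers scored nearly alike (1.11 and 1.01) and whose 10 leading genes include Clec3b, Cd248, Igfbp6 and Pi16. Of the 10 genes, 8 were above their level in the wells without a cell and above the 57.9 CPM that a count of 3 allows in the 51790 UMIs of those wells. Sparc was at 3047 CPM in these cells and 753 CPM in the empty wells, Mfap5 at 1050 and 193 CPM, Fbn1 at 470 and 57.9 CPM, Fbln2 at 370 and 154 CPM, Smoc2 at 319 and 96.5 CPM, Mfap4 at 170 and 38.6 CPM, Postn at 123 and 19.3 CPM, and Fbln1 at 118 and 96.5 CPM, the latter from 5 UMIs. Eln at 2.65 CPM and Cthrc1 at 1.99 CPM lay under this limit, with no UMI in the empty wells, and could not be compared. With this cluster added to the Fibroblast-like sums, an alternative chosen after seeing the data, Fbln2 lost its call (log2 change 1.57, adjusted p = 0.13, edgeR) and Mfap5 (1.80), Smoc2 (1.71), Postn (-2.27) and Cthrc1 (-3.73) were called. Among the P28 names counted as 5 animals no value of the 10 genes stood apart by Dixon's test at 95%.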

How the results depend on the processing

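In fibroblasts from P4 to P28 all 5 calls held with RLE size factors, DESeq2, no filter on low counts, sums per named animal, only P4 and P28 in the fit, at least 1000 genes per cell, at most 2000 UMIs per cell, without cells of mixed markers, with the members kept in clustering and without the globin genes. The genes called numbered 432 in the main fit, 661 without the filter, 922 with DESeq2 and 158 with cells called one by one, where 2 members were called. Leaving out each chip gave 139 to 677 genes and 1 to 5 members. Signs turned only for genes that were not called: Sparc was at -0.017 without the filter, -0.075 with cells called one by one and -0.069 with the unnamed P28 cluster added, Fbln1 at 0.0026 per animal and 0.039 with at most 2000 UMIs per cell, and leaving out chips gave Fbln1 from -0.32 to 0.040, Mfap4 from -1.17 to 0.068 and Sparc from -0.17 to 0.32. From P4 to P7, 53 genes were called without the filter, 48 with DESeq2, 2 without globin genes and 5 to 9 without single chips (Cthrc1 from -0.90 to 0.17 and Sparc from -0.021 to 0.48). From P7 to P14, 602 genes and 5 members were called without the filter, 1233 genes with DESeq2, and 46 to 1307 genes with 0 to 4 members without single chips. Mfap5 passed with RLE size factors (1.33, adjusted p = 0.049, edgeR). Sparc was at 0.11 with RLE size factors and with DESeq2, and without single chips from -0.13 to 0.030, with Fbln1 from -0.13 to 0.59. From P14 to P28, 392 genes were called without the filter, 794 with DESeq2 and 37 to 1081 without single chips. There Fbln1 was at -0.078 with RLE size factors and -0.077 with DESeq2, and Mfap5 at 0.016 without the filter and 0.016 without globin genes. Without single chips the ranges were -0.22 to 0.49 for Fbln1, -0.31 to 0.049 for Fbn1, -0.12 to 0.067 for Mfap5, -0.76 to 0.30 for Postn, -0.44 to 0.35 for Smoc2 and -0.25 to 0.025 for Sparc.

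In endothelial cells 664 genes were called without the filter, 960 genes and 1 member (Mfap5) with DESeq2, 263 with only P4 and P28 in the fit and 138 to 455 with 0 to 1 members without single chips. Sparc was at 0.0036 with RLE size factors and 0.0036 with DESeq2, Fbln1 at -0.0055 per animal, and the ranges without single chips were -1.22 to 1.09 for Fbln1, -0.41 to 1.96 for Mfap4 and -0.48 to 0.21 for Sparc. The difference between both classes had 48 genes called without the filter and 0 to 1 without single chips. Replicate numbers on the labels pair no samples, but both classes share chips: without the replicate block Fbln1 was at -0.28 and Smoc2 at 0.33, and no member was called with or without it. Ranges without single chips were -1.42 to 6.31 for Eln, -0.48 to 0.80 for Fbln1, -0.051 to 0.22 for Fbn1, -1.60 to 1.07 for Smoc2 and -0.034 to 0.42 for Sparc. Between the hairpin labels 99 genes were called without the filter and 79 with DESeq2. With sums per animal and chip and the chip as a replicate block, Postn was at 0.46 and no member was called. Without cells scoring for the epicardial list, Eln was at 0.056 and Fbln1 at 0.0035. Leaving out each animal, where the lone animal is assumed to vary like the others, gave -6.44 to 0.92 for Cthrc1, -1.44 to 0.57 for Eln, -0.38 to 0.17 for Fbln1, -0.43 to 0.24 for Fbn1, -1.22 to 0.0070 for Mfap4, -0.74 to 0.68 for Postn and -0.36 to 0.030 for Sparc. The alternatives on the cycling clusters, the unnamed cluster, the globin genes and the epicardial-scoring cells were chosen after seeing the data. Causes of these shifts were not tested. Depth limits Eln throughout and Cthrc1 from P14 on.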

Other observations

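The P28 fibroblasts of the hairpin set differed in level from the wild-type P28 fibroblasts for some of the genes, whichever hairpin they carried. Mfap5 was at 2205 to 3513 CPM in the 4 hairpin animals and at 5114 to 6841 CPM on the wild-type P28 chips, and Fbln1 at 512 to 811 CPM against 191 to 337 CPM. Neither overlapped. Cthrc1 was at 0 to 1.99 CPM against 5.84 to 47.1 CPM on the chips. Per named wild-type P28 animal, however, Cthrc1 ranged from 1.28 to 60.6 CPM, which overlaps with the hairpin animals. Fbln2 (706 to 933 against 619 to 1386 CPM) and Sparc (2709 to 4018 against 2149 to 3869 CPM) overlapped as well. Virus, chip set and CM marker RNA (4848 to 40072 against 627 to 745 CPM) all differ between the sets and cannot be told apart, so these values were set side by side without a test.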
